A study of Arabidopsis thaliana with 30 samples.

Results

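The light reactions of photosynthesis in Arabidopsis thaliana use proteins that are encoded partly in the plastid and partly in the nucleus, and 33 nuclear genes for subunits and carriers of this chain were followed here, out of 34262 genes listed in each file. They were listed by gene identifier for their function; the list uses no measured value as a criterion, but was drawn up with earlier results of these data known. They comprise 12 genes for photosystem I subunits, 6 for subunits at the oxygen-evolving side of photosystem II, 6 for small and assembly subunits of photosystem II, 7 for electron carriers and 2 for subunits of the plastid ATP synthase. RNA was sequenced from leaves of bolting plants of the Col-0 accession, kept without heat treatment under days of 12 h or 16 h of light. The 30 libraries form 10 groups of 3 biological replicates, which the submitters describe as full siblings, so that p-values measure the spread between these replicates.

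At 12 h, one set holds cue1 mutants, hda6 mutants and their wild type, and another holds sal1 mutants and a wild type of their own. At 16 h, one set holds cue1 mutants, msh1 mutants and their wild type, and another holds hda6 mutants and a wild type of their own. The gene CUE1 encodes the phosphoenolpyruvate translocator of the plastid envelope, and the mutant was named for low expression of a light-harvesting gene. HDA6 encodes a histone deacetylase, SAL1 a phosphatase that removes a retrograde signal of stressed plastids, and MSH1 a MutS homologue of plastids and mitochondria. No allele is named in the labels. Each mutant group was compared with the wild type of its own set.

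Photosystem II takes electrons from water at a manganese cluster shielded by the lumenal proteins PSBO, PSBP and PSBQ. Electrons then pass through the cytochrome b6f complex, of which the Rieske protein is a subunit, and plastocyanin to photosystem I, and onward through ferredoxin to ferredoxin-NADP reductase (FNR). The proton gradient built on the way drives the plastid ATP synthase. The reaction-centre proteins themselves are made in the plastid, while most of the peripheral subunits come from nuclear genes that are transcribed strongly in green leaf cells, under control of light, the circadian clock and signals from the plastid.

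Libraries held 14417942 to 33747006 gene counts, and each member had at least 791 counts in each library. All 33 members passed the filter on low counts in each comparison. The labelled tissue was checked by markers: the mesophyll genes RBCS1A, CA1 and RCA summed to 3670 to 36200 CPM per library (counts relative to the scaled library size), and the 5 floral organ genes AP1, AP3, PI, AG and SEP3 to 0.673 to 11 CPM. CUE1 transcripts were lower in cue1 (log2 fold change -3.54 at 12 h and -3.74 at 16 h) and HDA6 transcripts lower in hda6 (-0.18 and -0.65). SAL1 transcripts were higher in the libraries labelled sal1 (log2 fold change 1.65) and MSH1 transcripts higher in those labelled msh1 (1.42), so directions in these comparisons rest on the labels. The HDA6 change at 12 h (-0.18) was small, so that comparison rests on its label too. Between 2.58% and 5.78% of entries were assigned to no gene in the 12 h set of cue1 and hda6, against 48.0% to 49.6% in the other sets, so for cue1 and hda6 a change of day length and a change of set cannot be told apart. Plastid genes, and with them the reaction-centre proteins, had 0 counts in each library.

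Exons of neighbouring genes overlap some members on the other strand, and whether the counting used strand is not stated. The overlap covers 61.4% of the exonic bases of PSAG, 53.3% of PSAH1, 34.1% of PSAE1, 24.8% of PSAH2, 12.7% of FNR1 and 10.4% of PSAE2, and 2.95% to 6.51% of PSBP1, PSAN and PSBR. Values of these genes are uncertain to that extent. The 8 pairs of paralogous members shared 0 stretches of 50 bases with their partner, so that reads of 150 bases can be assigned to one paralog.

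Promoter sequences were read from the TAIR10.1 genome of RefSeq, over the 250 bases before each annotated gene start. The G-box core CACGTG occurred in 7 of the 33 windows (21.2%), against 6.49% of 27443 protein-coding genes. The I-box GATAAG, with its reverse complement CTTATC, occurred in 8 windows (24.2%), against 12.3% of all, and CCAATC or GATTGG in 5 (15.2%), against 10.2%. The evening element AAATATCT was present in 1 window (3.03%, against 4.79% of all) and the CCA1-binding site AAAAATCT in 2 (6.06%, against 6.69%), each with its reverse complement. A match is a description of the letters and not a site shown to be bound. No 2 of the motifs overlapped in the windows of the members. The 2 paralog pairs below, for PSBQ and plastocyanin, are shown as examples among the pairs whose 2 genes differed in their calls, and PSAH2 because it was called lower in 3 of the 6 mutant groups. Only the stretch next to the start that is free of annotated exons is printed, 5′ to 3′ in the direction of the gene, with motif matches in capitals.
PSBQ1, chr4:11334169-11334351, plus strand: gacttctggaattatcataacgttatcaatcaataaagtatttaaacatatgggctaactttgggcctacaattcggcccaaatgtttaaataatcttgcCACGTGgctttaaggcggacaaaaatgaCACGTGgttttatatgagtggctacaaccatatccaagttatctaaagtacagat
PSBQ2, chr4:2673244-2673493, minus strand: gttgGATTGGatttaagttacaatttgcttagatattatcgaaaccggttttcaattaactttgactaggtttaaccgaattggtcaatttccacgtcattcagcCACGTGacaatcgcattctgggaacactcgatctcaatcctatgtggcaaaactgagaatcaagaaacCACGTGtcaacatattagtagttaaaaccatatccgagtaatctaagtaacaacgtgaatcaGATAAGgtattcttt
PETE1, chr1:28554931-28555033, minus strand: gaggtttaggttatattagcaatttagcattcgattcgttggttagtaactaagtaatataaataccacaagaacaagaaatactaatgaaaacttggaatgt
PETE2, chr1:7043393-7043627, minus strand: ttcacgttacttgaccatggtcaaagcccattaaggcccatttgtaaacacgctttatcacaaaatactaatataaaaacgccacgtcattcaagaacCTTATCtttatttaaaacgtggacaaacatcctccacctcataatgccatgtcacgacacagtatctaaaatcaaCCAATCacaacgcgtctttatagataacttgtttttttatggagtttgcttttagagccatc
PSAH2, chr1:19454766-19454797, plus strand: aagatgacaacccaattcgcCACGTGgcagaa
The PSBQ1 stretch holds 2 G-boxes, and the PSBQ2 stretch holds 2 G-boxes, an I-box close to the start and a CCAATC match. PETE2, the gene of the more abundant plastocyanin, has a CCAATC match and an I-box, while none of the 5 motifs is in the PETE1 window. The PSAH2 window holds a second G-box and an I-box farther upstream, outside the stretch printed.

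In the wild types, levels per exon length spanned a wide range, and PSBR, a lumenal subunit needed for stable attachment of PSBP, was the highest of the 33 in each of the 4 wild-type groups. Its level was 3784 ± 615 CPM per kb in the 12 h wild type of cue1 and hda6, 2507 ± 463 in that of sal1, 4234 ± 229 in the 16 h wild type of cue1 and msh1, and 5870 ± 511 in that of hda6 (mean ± SD, n = 3). The next genes in the order of the first of these groups lay within their SDs of each other: PSAG had 2849 ± 490.5, PSAO 2769 ± 343 and PSBO1 2503 ± 452 CPM per kb. The lowest 3 in each wild type were PSB28, an assembly factor of photosystem II, PETE1, the minor plastocyanin, and FD1, the minor leaf ferredoxin. PSB28 had 90.9 ± 20.8 CPM per kb in the 12 h wild type of cue1 and hda6 and 97.1 ± 26.1 in the 16 h wild type of cue1 and msh1.

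Together the members made up 2.07% to 6.23% of gene counts per library. Their summed share was 2.71%, 2.3% and 2.07% in sal1, against 3.37%, 2.96% and 2.53% in its wild type. It was 3.6%, 3.59% and 3.94% in hda6 at 12 h, against 3.82%, 4.89% and 4.45% in wild type, and 4.52%, 4.44% and 4.99% in cue1 of the same set. At 16 h it was 4.07%, 4.57% and 3.54% in cue1 and 4.75%, 4.41% and 4.74% in msh1, against 4.94%, 5.42% and 5.02% in wild type. In hda6 at 16 h it was 6.06%, 5.92% and 5.97%, against 5.86%, 5.44% and 6.23% in its wild type. The shares of cue1 and of msh1 at 16 h lay below those of all 3 wild-type libraries, and in the other comparisons the groups overlapped. In the sal1 set, libraries of the same number were taken as pairs from correlations in these same data, and no label gives the pairing. The share was lower in sal1 in 3 of 3 such pairs, which is a description and not a test. In whole leaves, fewer cells that express these genes and less RNA per cell cannot be told apart.

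**Figure D1:**
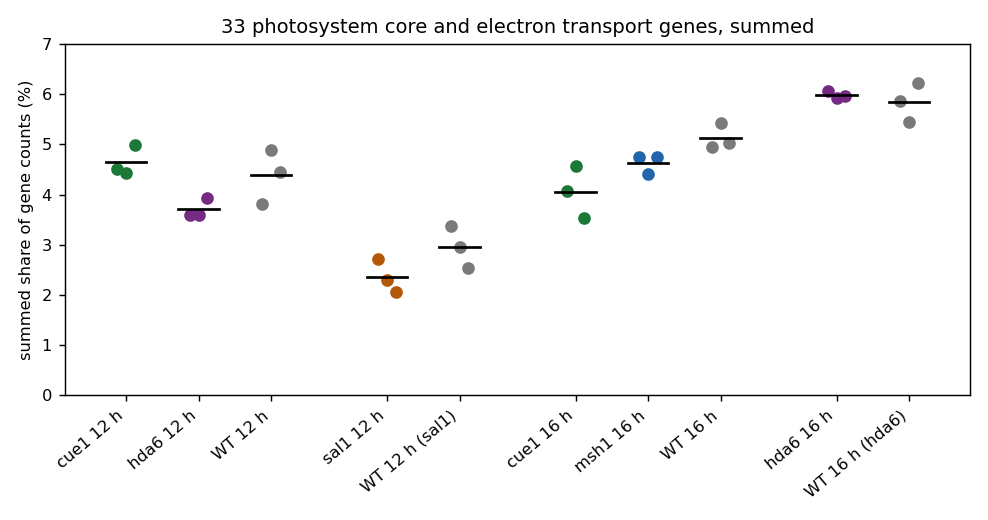
Summed share of gene counts of the 33 genes in percent (vertical axis, linear) in each library, by group; points are libraries and bars are means of 3. The share was lowest in sal1, at 2.07% to 2.71%, and the 16 h groups of cue1 and msh1 lay below their wild type.

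The members moved together between replicates of one group. In the 12 h set, wild-type replicate 2 was the highest of its group for 32 members and replicate 1 the lowest for 32, and cue1 replicate 3 was the highest for all 33. These 2 high libraries also had the lowest shares of entries assigned to no gene in their groups, 3.62% in cue1 replicate 3 and 2.58% in wild-type replicate 2. The third group of that set showed the same: hda6 replicate 3 was the highest for 30 members and had the lowest such share of its group, 3.67%. In the sal1 set, replicate 1 was the highest for 31 members in sal1 and for 32 in wild type, and replicate 3 the lowest for 31 in sal1 and 33 in wild type. In cue1 at 16 h, replicate 2 was the highest for 32 and replicate 3 the lowest for 31, and the senescence marker SAG12 stood at 105.5 CPM in replicate 3 against 0.0438 and 4.26 CPM in replicates 1 and 2. In the wild type of hda6 at 16 h, replicate 2 was the lowest for 33. A single library therefore moves most members at once, and each count of members called is also given below for the libraries whose removal changed it by more than 1.5 times. The part of these libraries' other differences in the results was not tested.

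Calls were read from edgeR's quasi-likelihood test over all genes of a set at a Benjamini-Hochberg adjusted p under 0.05. Of the 33 members, 7 were called lower in 0 of the 6 comparisons with wild type, 15 in 1, 10 in 2 and 1, PSAH2, in 3. The 7 with 0 were PSAE2, PSAG, PSAL, PSBP1, PSB27, FD2 and FNR1. Only FNR2 in msh1 and FD1 in hda6 at 16 h were called higher. Shares called among the members have to be read against the share among all genes, which differed widely between mutants.

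**Figure D2:**
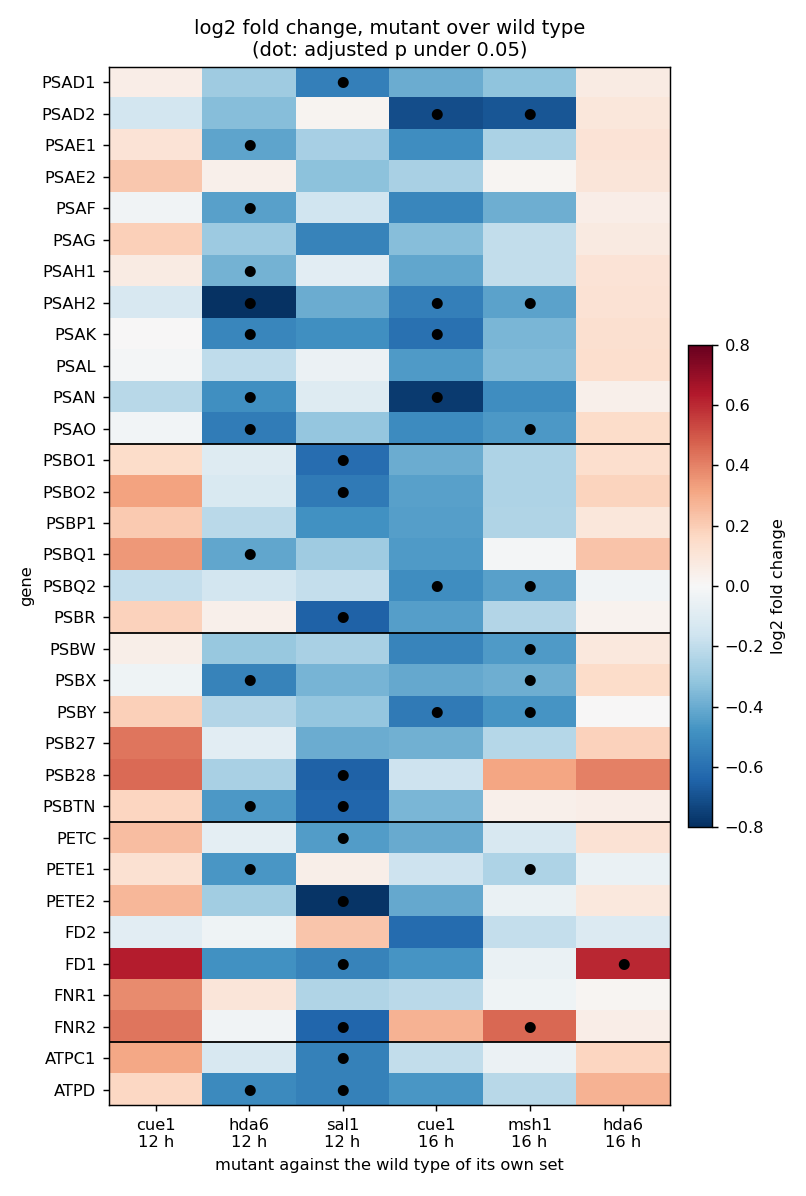
log2 fold change of each member (rows, ordered as photosystem I, oxygen-evolving subunits, small photosystem II subunits, carriers and ATP synthase, separated by lines) in each mutant over the wild type of its set (columns); red is higher and blue lower in the mutant, and a dot marks an edgeR adjusted p under 0.05. Dots in the hda6 column at 12 h lie mostly in the photosystem I rows (7 of 12), and in the sal1 column mostly outside them (1 of 12).

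In cue1 at 12 h, none of the photosystem and carrier genes passed the test. edgeR called 0 of the 33 higher, where 1.3% of all 20649 genes tested were higher, and 0 lower, where 0.542% were. At an unadjusted p under 0.05, 6 members passed, as did 3374 of all genes. By DESeq2 3 members were higher and 0 lower, against 692 and 492 of all genes. The median log2 fold change of the members was 0.17 (24 positive and 9 negative), against -0.0013 over all genes. Photosystem I subunits had a median of -0.0065 and a range of -0.22 to 0.22, and oxygen-evolving subunits a median of 0.20.

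FD1, the minor leaf ferredoxin, had the largest change. It stood at 93.9, 102 and 149.8 CPM in the 3 cue1 libraries, against 67.1, 72.3 and 84.6 CPM in wild type (log2 fold change 0.63 ± 0.175 (SE, n = 3 each), edgeR adjusted p = 0.114). Each cue1 library lay above each wild-type library, yet the change did not pass the test. FD2, which encodes the major leaf ferredoxin, stood at 653, 542 and 835 CPM in cue1, against 668, 830.4 and 655 CPM in wild type, with overlapping groups. In total 8 members had each cue1 library above each wild-type library, and 12.4% of all genes did, while 0 had each below, against 9.41% of all genes. The 3 mesophyll markers summed to 17200 to 21400 CPM in cue1, against 10600 to 15800 CPM in wild type, and the 2 senescence markers to 20.7 to 75.3 CPM in cue1, against 20.2 to 25.2 CPM in wild type. Neither list had a call. CCA1 stood at 4.67, 7 and 7.47 CPM in cue1, against 31, 43.8 and 41.9 CPM in wild type, and the part of these genes in the values was not tested.

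In hda6 at 12 h, 12 members were lower (36.4%) and 0 higher, where 19.6% of all genes were lower and 22.4% higher. At an unadjusted p under 0.05, 14 members passed, as did 10563 of all 20649 genes. With DESeq2 14 members were lower and 0 higher, against 4304 and 4726 of all genes. In 15 members each hda6 library lay below each wild-type library, as in 25.2% of all genes, and in 0 above, as in 28.7%. The members' median log2 fold change was -0.28, against -0.0047 over all genes. Photosystem I subunits made up 7 of the 12: PSAH2, PSAO, PSAK, PSAN, PSAH1, PSAF and PSAE1. The others were the small photosystem II subunits PSBX and PSBTN, the plastocyanin PETE1, the ATP synthase subunit ATPD and the oxygen-evolving subunit PSBQ1.

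PSAH2 (AT1G52230, chr1:19454798-19455668, plus strand, TAIR10.1 annotation) encodes subunit H, where light-harvesting antenna docks on photosystem I when energy is shared out between the photosystems. Its transcripts stood at 412, 419 and 509 CPM in hda6, against 612, 892 and 816 CPM in wild type (log2 fold change -0.79 ± 0.151 (SE, n = 3 each), edgeR adjusted p = 0.00353). Its paralog PSAH1 had 578, 576 and 640.2 CPM in hda6, against 656, 905 and 769.9 CPM in wild type (log2 fold change -0.38 ± 0.127 (SE, n = 3 each), edgeR adjusted p = 0.0392). For both genes the groups did not overlap, and the change of PSAH2 was the largest of the 33.

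PSAO, a small subunit next to subunit H, had 1493, 1426 and 1689 CPM in hda6, against 1958, 2505 and 2340 CPM in wild type (log2 fold change -0.56 ± 0.134 (SE, n = 3 each), edgeR adjusted p = 0.00962). PSAK, a subunit at the antenna side, had 610.4, 594 and 652 CPM in hda6, against 729, 1020 and 915 CPM in wild type (log2 fold change -0.52 ± 0.134 (SE, n = 3 each), edgeR adjusted p = 0.0132). In both cases all 3 hda6 libraries lay below the lowest wild-type library. PSBX, a small membrane subunit of photosystem II, had 958, 978 and 1113 CPM in hda6, against 1213, 1762 and 1431 CPM in wild type (log2 fold change -0.53 ± 0.145 (SE, n = 3 each), edgeR adjusted p = 0.017). PSBTN, a small lumenal subunit, had 542, 508 and 548 CPM in hda6, against 594, 855 and 752 CPM in wild type (log2 fold change -0.46 ± 0.137 (SE, n = 3 each), edgeR adjusted p = 0.0239). Wild-type replicate 1 was the lowest wild-type library for each of these genes. The other 6 calls had log2 fold changes of -0.41 to -0.51.

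The calls of PSAH2 and PSAO stayed below 0.05 when any single library was left out, with edgeR adjusted p up to 0.0182 and 0.0435. The count of members called lower was 6, 2 and 6 without hda6 replicate 1, 2 or 3, and 3 and 4 without wild-type replicate 2 or 3. Without both libraries of the set with the lowest shares of unassigned entries, a choice made after seeing the data, it was 6. That run left out a high wild-type library and kept hda6 replicate 3, which had the lowest such share in hda6 (3.67%). Beside these changes, both senescence markers were called higher in hda6 and summed to 41.9 to 110.0 CPM, against 20.2 to 25.2 CPM in wild type. KNOLLE, a gene of dividing cells, was called lower, and both meristem markers together summed to 3.46 to 8.38 CPM in hda6, against 9.63 to 21.0 CPM in wild type. The floral gene PI was called higher (the 5 floral genes summed to 1.91 to 2.98 CPM in hda6, against 1.45 to 1.76 CPM in wild type), and the 2 guard cell markers, neither called, summed to 17.9 to 20.0 CPM in hda6, against 22.8 to 23.9 CPM in wild type. The morning clock gene CCA1 stood at 4.33, 5.64 and 6.18 CPM in hda6, against 31, 43.8 and 41.9 CPM in wild type. Their part in the result was not tested.

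In the libraries labelled sal1, 12 members were also lower (36.4%) and 0 higher, where 21.3% of all 21845 genes tested were lower and 25.0% higher. At an unadjusted p under 0.05, 14 members passed, as did 11839 of all genes. Calls by DESeq2 were 14 lower and 0 higher, against 4677 and 5461 of all genes. A fit with the replicate number as a block called 20 lower, against 4874 of all genes. That block was chosen from correlations in these same data, so its higher count is no separate support. In 11 members each sal1 library lay below each wild-type library, as in 27.8% of all genes, and in 0 above, as in 30.6%. The members' median log2 fold change was -0.40, against 0.01 over all genes. Only 1 of the 12 photosystem I genes was called, PSAD1, beside 3 of 6 oxygen-evolving, 2 of 6 small photosystem II, 4 of 7 carrier genes and 2 of 2 ATP synthase genes.

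PETE2 (AT1G20340, chr1:7042046-7043392, minus strand) encodes the major plastocyanin. It had 1130, 974 and 759 CPM in sal1, against 1925, 1606 and 1398 CPM in wild type (log2 fold change -0.78 ± 0.19 (SE, n = 3 each), edgeR adjusted p = 0.0113). The groups did not overlap. The minor plastocyanin gene PETE1 had 148, 144 and 116 CPM in sal1, against 142, 133 and 119 CPM in wild type (log2 fold change 0.048 ± 0.117 (SE, n = 3 each), edgeR adjusted p = 0.757), with overlapping groups.

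FNR2 (AT1G20020, chr1:6942625-6945091, plus strand), one of 2 leaf reductases that pass electrons from ferredoxin to NADP, had 729, 618 and 526 CPM in sal1, against 1112, 981 and 811 CPM in wild type (log2 fold change -0.63 ± 0.168 (SE, n = 3 each), edgeR adjusted p = 0.0167). Its paralog FNR1 had 641, 605 and 499 CPM in sal1, against 705, 729.7 and 627 CPM in wild type (log2 fold change -0.24 ± 0.131 (SE, n = 3 each), edgeR adjusted p = 0.168). The 2 genes thus differed in their calls, and the ratio between them is described further on. ATPC1, the gamma subunit of the ATP synthase, had 828, 715 and 621 CPM in sal1, against 1097, 1083 and 969.6 CPM in wild type (log2 fold change -0.54 ± 0.14 (SE, n = 3 each), edgeR adjusted p = 0.0147).

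PSAD1, at the stromal face where ferredoxin docks, had 1023, 915 and 822 CPM in sal1, against 1480, 1387 and 1170 CPM in wild type (log2 fold change -0.55 ± 0.146 (SE, n = 3 each), edgeR adjusted p = 0.0166). Its paralog PSAD2 had 303, 361 and 309.7 CPM in sal1, against 382, 322 and 255 CPM in wild type (log2 fold change 0.022 ± 0.157, SE). PSBR had 1398, 1266 and 1106 CPM in sal1, against 2299, 2020 and 1579 CPM in wild type (log2 fold change -0.65 ± 0.178 (SE, n = 3 each), edgeR adjusted p = 0.0192). In sal1 and in its wild type alike, replicate 1 was the highest and replicate 3 the lowest for PSAD1 and PSBR. The other 7 calls, for PSBO1, ATPD, PSBTN, PSBO2, PSB28, PETC and FD1, had log2 fold changes of -0.45 to -0.65.

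Only the call of PETE2 stayed below 0.05 without any single library (edgeR adjusted p up to 0.038). The count of members called lower was 1 without sal1 replicate 2 or 3, 3 without wild-type replicate 1 and 1 without wild-type replicate 2. All 3 mesophyll markers were also called lower in sal1 and summed to 3670 to 6410 CPM, against 10200 to 14000 CPM in wild type. Of 2 senescence markers NYE1 was called higher in sal1, and of 2 meristem markers KNOLLE was called lower. The sums of both lists overlapped between the groups. The senescence sum was 44.6 to 57.1 CPM in sal1, against 26.7 to 72.6 CPM in wild type. The meristem sum was 10.0 to 22.5 CPM in sal1, against 19.9 to 32.6 CPM in wild type. The floral gene PI was called higher, with floral sums of 1.87 to 2.91 CPM in sal1, against 0.673 to 1.13 CPM in wild type. Of 3 secondary-wall genes of stems, CESA8 was called lower, with sums of 52.2 to 61.4 CPM in sal1, against 60.5 to 97.5 CPM in wild type. CCA1 stood at 50, 43.7 and 27.8 CPM in sal1, against 16.2, 13.9 and 14.2 CPM in wild type, the opposite direction to the 12 h hda6 comparison. Their part in the result was not tested.

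**Figure D3:**
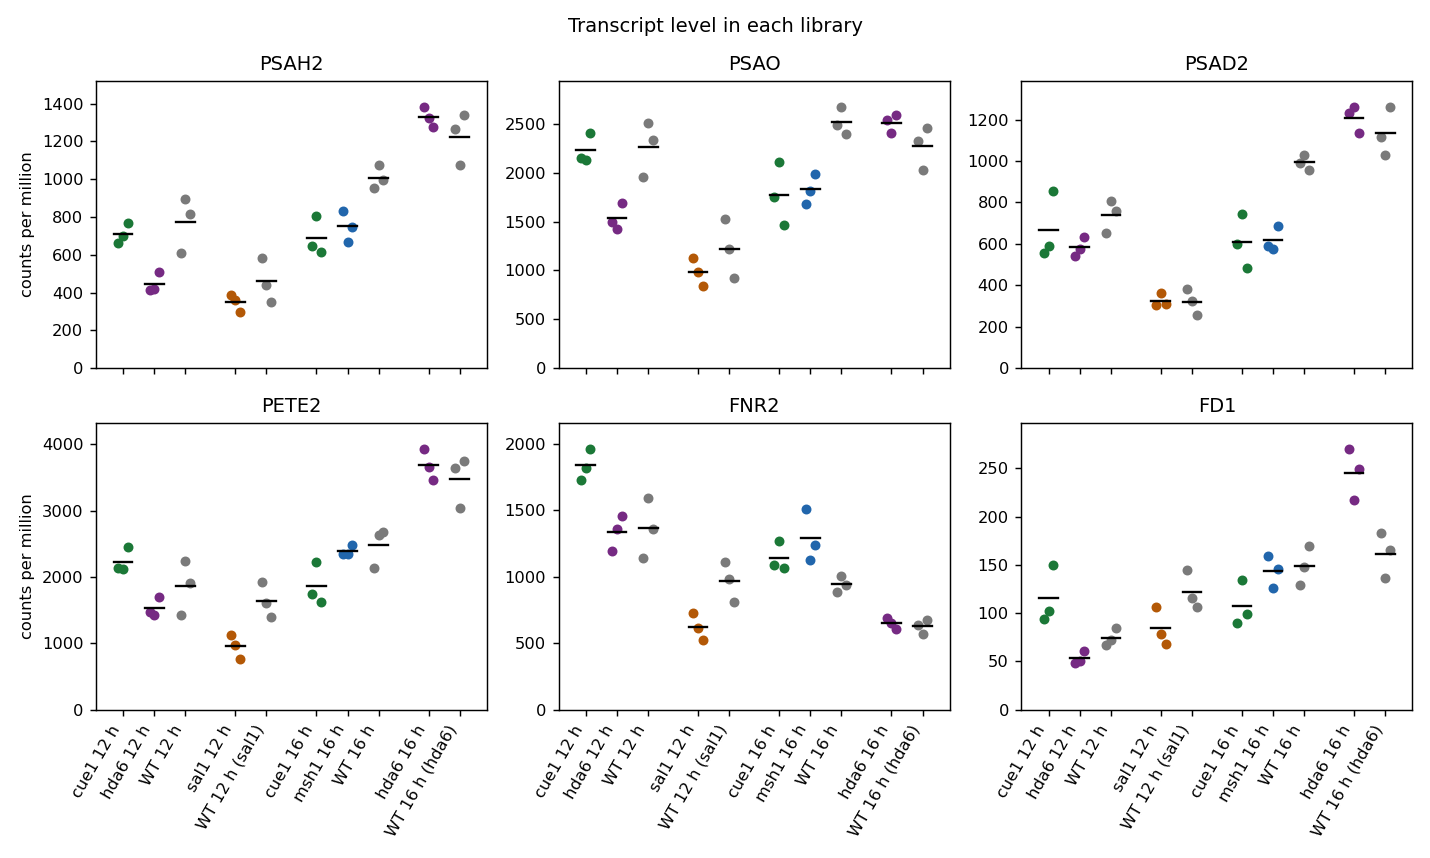
CPM (vertical axes, linear from 0) of 6 members in each library, by group, with mutants left of their wild type; points are libraries and bars are means of 3. PSAH2 and PSAO are low in hda6 at 12 h and PETE2 in sal1, PSAD2 is low in cue1 and msh1 at 16 h where FNR2 is not, and FD1 is high in hda6 at 16 h.

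In cue1 at 16 h, 6 members were lower (18.2%) and 0 higher, where 3.42% of all 20785 genes tested were lower and 3.34% higher. The called genes were the photosystem I genes PSAD2, PSAH2, PSAN and PSAK, the small photosystem II subunit PSBY and the oxygen-evolving subunit PSBQ2. At an unadjusted p under 0.05, 27 members passed, as did 4824 of all genes. By DESeq2 24 members were lower and 0 higher, against 1123 and 974 of all genes. The members' median log2 fold change was -0.44, against 0.024 over all genes, and 32 of 33 were negative. In 21 members each cue1 library lay below each wild-type library, as in 12.4% of all genes, and in 1 above, as in 14.1%.

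PSAD2 (AT1G03130, chr1:753307-754262, minus strand) had 599, 744 and 484 CPM in cue1, against 990.4, 1031 and 959 CPM in wild type (log2 fold change -0.71 ± 0.148 (SE, n = 3 each), edgeR adjusted p = 0.0178). PSAD1 had 1787, 2068 and 1562 CPM in cue1, against 2291, 2588 and 2266 CPM in wild type (log2 fold change -0.40 ± 0.129 (SE, n = 3 each), edgeR adjusted p = 0.0912). Both genes lay lower in all 3 cue1 libraries, and only PSAD2 passed the test. PSAN, a lumenal subunit at the plastocyanin side, had the largest change of the 33, with 735, 1087 and 609 CPM in cue1, against 1275, 1473 and 1377 CPM in wild type (log2 fold change -0.76 ± 0.188 (SE, n = 3 each), edgeR adjusted p = 0.0349). Replicate 2 of cue1 was the highest of its group for PSAD1, PSAD2 and PSAN.

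PSAH2 had 647, 808 and 613 CPM in cue1, against 954, 1077 and 994 CPM in wild type (log2 fold change -0.55 ± 0.132 (SE, n = 3 each), edgeR adjusted p = 0.0319). PSAH1 had 536, 711 and 542 CPM in cue1, against 775, 881 and 731 CPM in wild type (log2 fold change -0.42 ± 0.15 (SE, n = 3 each), edgeR adjusted p = 0.123). Neither pair of groups overlapped. PSBY had 875, 1124 and 842 CPM in cue1, against 1288, 1549 and 1371 CPM in wild type (log2 fold change -0.57 ± 0.139 (SE, n = 3 each), edgeR adjusted p = 0.0347). PSAK had 945, 1138 and 779.9 CPM in cue1, against 1407, 1521 and 1395 CPM in wild type (log2 fold change -0.59 ± 0.147 (SE, n = 3 each), edgeR adjusted p = 0.0354). PSBQ2 was called with a log2 fold change of -0.50. FNR2 was the one member with a positive value (0.28 ± 0.132, SE) and was not called.

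None of the 6 calls stayed below 0.05 without each single library. The count of members called lower was 2, 26 and 1 without cue1 replicate 1, 2 or 3, 0 without wild-type replicate 1 or 2, and 2 without wild-type replicate 3. The senescence markers summed to 14.7 to 138.0 CPM in cue1, against 18.8 to 24.0 CPM in wild type, where SAG12 was at 0 in all 3 libraries, and neither marker was called. Of 3 mesophyll markers, RCA was called lower, and the 3 summed to 14500 to 21200 CPM in cue1, against 18800 to 25300 CPM in wild type. The secondary-wall gene CESA4 was called lower, with sums over the 3 such genes of 39.1 to 57.5 CPM in cue1, against 63.5 to 70.6 CPM in wild type. The floral genes, none called, summed to 3.75 to 6.27 CPM in cue1, against 1.18 to 2.75 CPM in wild type. CCA1 stood at 13.2, 8.76 and 13.4 CPM in cue1, against 131, 134 and 143 CPM in wild type. Their part in the result was not tested.

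In the libraries labelled msh1, 8 members were lower (24.2%), where 16.0% of all genes were lower, and 1 was higher (3.03%), where 17.4% were. The lower genes were PSAD2, PSAH2 and PSAO of photosystem I, PSBQ2, PSBY, PSBW and PSBX of photosystem II and the plastocyanin PETE1, and the higher one was FNR2. Unadjusted, 14 members passed, as did 9013 of all 20785 genes. With DESeq2 13 members were lower and 1 higher, against 3472 and 3561 of all genes. In 17 members each msh1 library lay below each wild-type library, as in 23.7% of all genes, and in 1 above, as in 24.9%. The members' median log2 fold change was -0.24, against 0.0089 over all genes. The wild type is the same as for cue1 at 16 h, so the calls of the 2 comparisons share 3 libraries.

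PSAD2 had 591, 576 and 687 CPM in msh1, against 990.4, 1031 and 959 CPM in wild type (log2 fold change -0.68 ± 0.148 (SE, n = 3 each), edgeR adjusted p = 0.00451), the largest change of the 33. PSAD1 had 1855, 1887 and 1972 CPM in msh1, against 2291, 2588 and 2266 CPM in wild type (log2 fold change -0.32 ± 0.129 (SE, n = 3 each), edgeR adjusted p = 0.077). Neither pair of groups overlapped. FNR2 had 1507, 1129 and 1241 CPM in msh1, against 887, 1004 and 935 CPM in wild type (log2 fold change 0.46 ± 0.132 (SE, n = 3 each), edgeR adjusted p = 0.0205). FNR1 had 933, 819 and 834 CPM in msh1, against 809.7, 943 and 901 CPM in wild type (log2 fold change -0.037 ± 0.117 (SE, n = 3 each), edgeR adjusted p = 0.837). All 3 msh1 libraries lay above wild type for FNR2, with replicate 1 the highest, while the groups overlapped for FNR1.

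PSBQ2 had 1667, 1731 and 1704 CPM in msh1, against 2276, 2496 and 2114 CPM in wild type (log2 fold change -0.43 ± 0.126 (SE, n = 3 each), edgeR adjusted p = 0.0207). Its paralog PSBQ1 had 1345, 1187 and 1333 CPM in msh1, against 1146, 1372 and 1389 CPM in wild type (log2 fold change -0.016 ± 0.169 (SE, n = 3 each), edgeR adjusted p = 0.952). The PSBQ1 groups overlapped, and the PSBQ2 groups did not. PSBY had 1087, 908 and 1032 CPM in msh1, against 1288, 1549 and 1371 CPM in wild type (log2 fold change -0.47 ± 0.139 (SE, n = 3 each), edgeR adjusted p = 0.0214). PSAH2 had 834, 668 and 747 CPM in msh1, against 954, 1077 and 994 CPM in wild type (log2 fold change -0.43 ± 0.132 (SE, n = 3 each), edgeR adjusted p = 0.0272). For PSAH1, with 803, 585 and 697 CPM in msh1 against 775, 881 and 731 CPM in wild type, the groups overlapped. PSAO, PSBW, PSBX and PETE1 had log2 fold changes of -0.25 to -0.46.

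The call of PSAD2 alone stayed below 0.05 without any single library (edgeR adjusted p up to 0.0236). The count of members called lower was 3, 1 and 3 without msh1 replicate 1, 2 or 3, and 3 and 1 without wild-type replicate 1 or 2. The call of FNR2 was lost without msh1 replicate 1 or wild-type replicate 1, and 2 members were higher without wild-type replicate 3. Among the floral organ genes, AP1, AP3 and SEP3 were called higher in msh1, and the 5 genes summed to 7.86 to 11 CPM, against 1.18 to 2.75 CPM in wild type. The meristem markers summed to 33.2 to 41.8 CPM in msh1, against 19.3 to 20.7 CPM in wild type, with KNOLLE called higher, and the mesophyll gene RCA and the senescence gene NYE1 were called lower. The guard cell gene MYB60 was called lower, and both guard cell markers summed to 18.8 to 24.2 CPM in msh1, against 23.9 to 27.7 CPM in wild type. CCA1 stood at 4.7, 2.83 and 4.43 CPM in msh1, against 131, 134 and 143 CPM in wild type. Their part in the result was not tested.

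In hda6 at 16 h, 1 member was higher (3.03%) and 0 were lower, where 4.49% of all 20495 genes tested were higher and 3.52% lower. Without adjustment 4 members passed, as did 4609 of all genes. Calls by DESeq2 were 3 higher and 0 lower, against 1052 and 628 of all genes. In 7 members each hda6 library lay above each wild-type library, as in 13.5% of all genes, and in 0 below, as in 13.5%. The members' median log2 fold change was 0.094, against -0.012 over all genes. FD1 (AT1G10960, chr1:3664187-3665040, plus strand) was the called gene, with 270.2, 217 and 249 CPM in hda6, against 183, 137 and 165 CPM in wild type (log2 fold change 0.60 ± 0.11 (SE, n = 3 each), edgeR adjusted p = 0.00202). The groups did not overlap. FD2 had 1275, 1238 and 1402 CPM in hda6, against 1326, 1269 and 1633 CPM in wild type (log2 fold change -0.11 ± 0.105 (SE, n = 3 each), edgeR adjusted p = 0.59).

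The FD1 call stayed below 0.05 without any single library (edgeR adjusted p up to 0.0215), and was lost with all 30 libraries in one model. The count of members called higher was 3 without wild-type replicate 1. The other members had log2 fold changes of -0.11 to 0.40. The 3 mesophyll markers summed to 33700 to 36200 CPM in hda6, against 24600 to 30500 CPM in wild type, and were not called. CCA1 stood at 94.4, 98.8 and 84.2 CPM in hda6, against 228, 212 and 216 CPM in wild type, and its part in the result was not tested.

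The difference between the hda6 effects at the 2 day lengths was tested over the 4 groups. The hda6 effect was higher at 16 h than at 12 h for 7 of 33 members (21.2%) and lower for 0, where 12.9% of all 21913 genes tested were higher and 12.9% lower. DESeq2 called 15 higher and 0 lower, against 3153 and 3250 of all genes. At an unadjusted p under 0.05, 15 members passed, as did 8554 of all genes. The members' median difference was 0.36 on the log2 scale, against 0.014 over all genes. As said of the sets, this difference holds day length and set together.

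For FD1 the log2 fold change was 0.60 in hda6 at 16 h and -0.48 at 12 h, where it had 48.5, 50.9 and 61.1 CPM in hda6 against 67.1, 72.3 and 84.6 CPM in wild type. The difference was 1.08 ± 0.187 (SE), with an edgeR adjusted p = 0.00184. For PSAH2 it was 0.91 ± 0.208 (SE, edgeR adjusted p = 0.00758), and at 16 h PSAH2 had 1381, 1326 and 1277 CPM in hda6 against 1264, 1075 and 1337 CPM in wild type. Both genes lay below each wild-type library in all 3 hda6 libraries at 12 h, and at 16 h FD1 lay above and PSAH2 overlapped.

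ATPD, the delta subunit of the ATP synthase, had 1036, 972 and 1066 CPM in hda6 at 16 h against 929, 734 and 869.7 CPM in wild type, and 439, 445 and 509 CPM in hda6 at 12 h against 562, 754 and 668 CPM in wild type. Its difference was 0.79 ± 0.18 (SE, edgeR adjusted p = 0.00734). PSAO had 2538, 2407 and 2590 CPM in hda6 at 16 h against 2325, 2030 and 2463 CPM in wild type, with a difference of 0.71 ± 0.184 (SE, edgeR adjusted p = 0.014). For ATPD each hda6 library was above wild type at 16 h and below it at 12 h. PSAK, PSBX and PSBQ1 differed by 0.65 to 0.68. The differences of FD1, ATPD, PSAH2 and PSAO stayed below 0.05 without any single library. The count was 16 without the 12 h wild-type replicate 1 and 4 without the 16 h wild-type replicate 2.

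**Figure D4:**
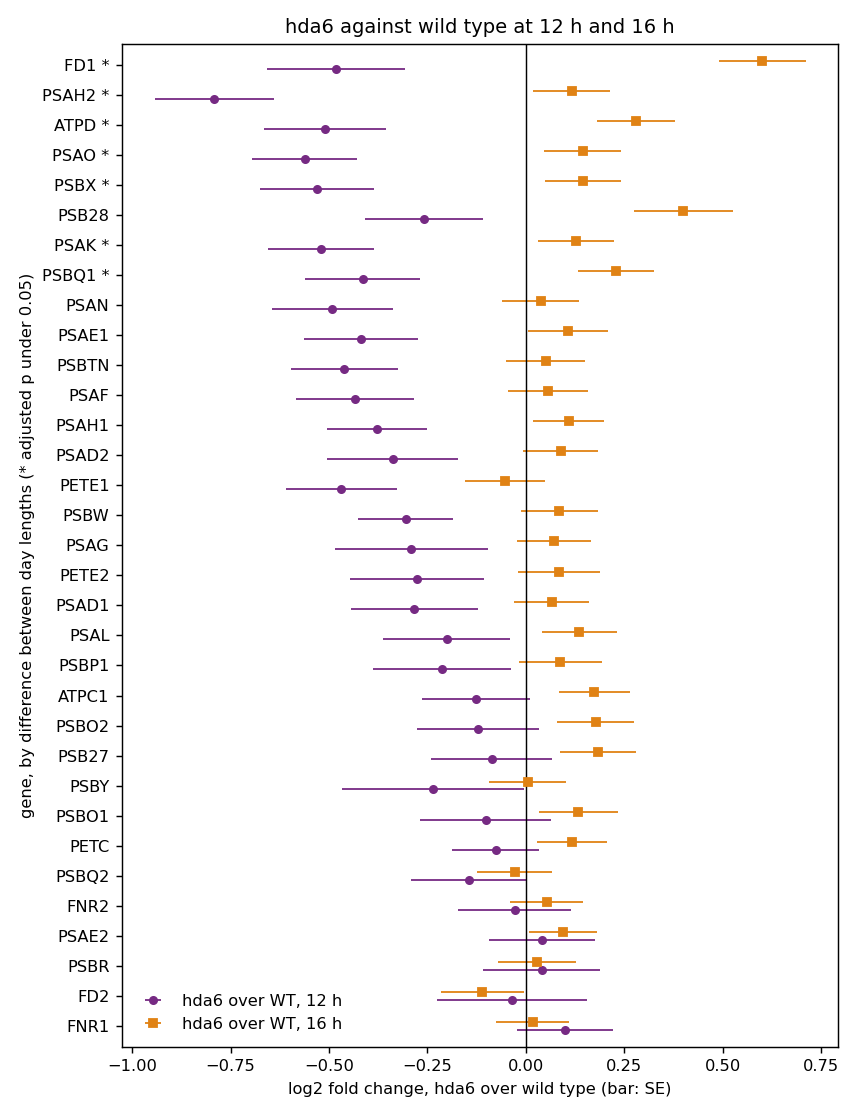
log2 fold change of each member in hda6 over wild type at 12 h (circles) and 16 h (squares), with SE bars; genes are ordered by the difference between both day lengths, and an asterisk marks an edgeR adjusted p under 0.05 for it. FD1, at the top, differs by 1.08, and at 12 h 30 of 33 members are below 0.

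The cue1 effects at the 2 day lengths differed by a median of -0.54 on the log2 scale over the members, against 0.022 over all genes, and all 33 differences were negative. No member passed the test: edgeR called 0 higher and 0 lower, where 0.35% and 0.444% of all 21163 genes were. At an unadjusted p under 0.05, 19 members passed, as did 3333 of all genes. By DESeq2 6 members were lower and 0 higher, against 586 and 331 of all genes. FD1 came closest, with -1.10 ± 0.265 (SE, edgeR adjusted p = 0.0792). Without cue1 replicate 2 of the 16 h set, 1 member was called lower.

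Within the 12 h set, hda6 was also compared with cue1 directly. In hda6, 19 members were lower than in cue1 (57.6%) and 0 higher, where 21.7% of all genes were lower and 23.6% higher. The median log2 difference was -0.44, against -0.0057 over all genes. With DESeq2 23 members were lower and 0 higher, against 4580 and 5043 of all genes. At an unadjusted p under 0.05, 23 members passed, as did 11005 of all 20649 genes. In 27 members each hda6 library lay below each cue1 library, as in 28.1% of all genes, and in 0 above, as in 29.1%. FD1 had 48.5, 50.9 and 61.1 CPM in hda6, against 93.9, 102 and 149.8 CPM in cue1 (log2 fold change -1.11 ± 0.177 (SE, n = 3 each), edgeR adjusted p = 0.00128). PSBQ1 had 700.2, 662 and 804 CPM in hda6, against 1179, 1178 and 1318 CPM in cue1 (log2 fold change -0.76 ± 0.147 (SE, n = 3 each), edgeR adjusted p = 0.00315). Neither pair of groups overlapped. Their paralogs FD2, with 826, 711 and 564 CPM in hda6, and PSBQ2, with 1726, 1631 and 1744 CPM in hda6 against 1657, 1584 and 1701 CPM in cue1, were not called. PSB28 had 72.1, 72.5 and 80 CPM in hda6, against 116, 117 and 135 CPM in cue1 (log2 fold change -0.71 ± 0.15, SE), again without overlap. The calls covered 5 of 12 photosystem I genes, 5 of 6 small photosystem II genes, 5 of 7 carriers, 2 of 6 oxygen-evolving genes and both ATP synthase genes. Of the 19, 9 stayed below 0.05 without any single library, and the count was 10 and 9 without hda6 replicate 1 or 2 and 9 without cue1 replicate 3. The 3 mesophyll markers summed to 10500 to 13100 CPM in hda6, against 17200 to 21400 CPM in cue1, and the 2 guard cell markers, both called lower, to 17.9 to 20.0 CPM in hda6, against 25.5 to 37.2 CPM in cue1. Their part in the result was not tested.

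Within the 16 h set, no member was called different between msh1 and cue1: by edgeR 0 were called higher in msh1, where 10.2% of all genes were, and 0 lower, where 11.8% were. Before adjustment 6 members passed at 0.05, as did 7531 of all 20785 genes. Calls by DESeq2 were 5 higher and 0 lower, against 2358 and 2662 of all genes. In 2 members each msh1 library lay above each cue1 library, as in 19.4% of all genes, and in 0 below, as in 19.7%. The median log2 difference of msh1 over cue1 was 0.18, with 32 of 33 positive, against 0.0042 over all genes. PSB28 came closest, with 124, 109 and 126 CPM in msh1, against 82.3, 95.6 and 78.5 CPM in cue1 (log2 fold change 0.48 ± 0.166 (SE, n = 3 each), edgeR adjusted p = 0.0585). Without cue1 replicate 2, 10 members were called higher in msh1.

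The sets of lower genes could be compared between mutants that share no library. Of the 12 lower in sal1 and the 12 lower in hda6 at 12 h, 2 were shared, ATPD and PSBTN, which is 16.7% of each list. Over all genes, 1592 lower genes were shared, 34.2% of those of sal1 and 39.4% of those of hda6. The 12 of hda6 at 12 h shared PSAH2, PSAK and PSAN with the 6 of cue1 at 16 h (25% and 50% of the lists, against 6.93% and 39.4% over all genes) and PETE1, PSAH2, PSAO and PSBX with the 8 of msh1 (33.3% and 50%, against 18.8% and 22.8% over all genes). sal1 shared 0 with cue1 or msh1 at 16 h, where over all genes the lists shared 3.67% and 24.1% with cue1 and 8.44% and 11.8% with msh1. These lists hold 6 to 12 members, so 1 gene moves a share by several points. The sal1 effect was set against the hda6 effect at 12 h in a test added after seeing the data, and 0 members were called in either direction, where 16.0% of all 22677 genes were higher and 15.1% lower. At an unadjusted p under 0.05, 3 members passed, as did 9552 of all genes. By DESeq2 2 members were lower and 0 higher, against 3846 and 4311 of all genes. PSBR came closest (-0.69 ± 0.252, SE, edgeR adjusted p = 0.0574). With all 30 libraries in one model 2 members were called lower and 1 higher, and with the replicate block 2 lower and 0 higher. In that test 1 member was higher without sal1 replicate 3 or the hda6 set's wild-type replicate 1, and 2, 2 and 1 were lower without sal1 replicate 1, the hda6 set's wild-type replicate 2 or the sal1 set's wild-type replicate 3.

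Since whole groups of members moved with single libraries, the ratio of paralogous transcripts within a library gives a view that library-wide shifts touch less. With 3 libraries against 3, an exact permutation test cannot go below p = 0.10, so the ratios of counts are given as values. They show unequal change within a pair and not which partner changed. At 12 h, 6 of the 8 pairs did not overlap with wild type in cue1, 5 in hda6 and 5 in sal1. At 16 h these were 4 in cue1, 6 in msh1 and 3 in hda6. The share for ratios of other gene pairs was not computed, so these counts have no background. PETE1 over PETE2 was 0.131, 0.147 and 0.153 in sal1, against 0.0737, 0.0826 and 0.0853 in its wild type. In 4 of the other 5 comparisons the ratio was lower in the mutant without overlap, by 0.13 to 0.20 in mean log2 ratio, and in cue1 at 16 h the groups overlapped. The sal1 shift was the largest of the 8 pairs in the 6 comparisons with wild type (0.83 in mean log2 ratio).

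FNR2 over FNR1 was 1.44, 1.5 and 1.56 in cue1 and 1.62, 1.38 and 1.49 in msh1 at 16 h, against 1.1, 1.06 and 1.04 in wild type. In sal1 the ratio moved the other way, with 1.14, 1.02 and 1.05 in sal1, against 1.58, 1.34 and 1.29 in its wild type, and also in hda6 at 12 h, with 1.32, 1.45 and 1.5 in hda6, against 1.52, 1.55 and 1.59 in wild type. In hda6 at 16 h the groups overlapped, at 0.703, 0.671 and 0.66 in hda6 and 0.691, 0.654 and 0.643 in wild type. PSAD2 over PSAD1 was 0.335, 0.36 and 0.309 in cue1 and 0.319, 0.305 and 0.348 in msh1 at 16 h, against 0.432, 0.399 and 0.423 in wild type, and 0.296, 0.395 and 0.377 in sal1, against 0.258, 0.232 and 0.218 in its wild type. In cue1 at 12 h it was 0.352, 0.374 and 0.381, against 0.424, 0.422 and 0.435 in wild type. The ratio thus lay below wild type in cue1 at both day lengths and in msh1, above it in sal1, and overlapped in hda6.

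PSAH2 over PSAH1 was lower than in wild type in 5 of the 6 mutant groups, each without overlap, and was lowest in hda6 at 12 h, at 0.714, 0.727 and 0.795, against 0.933, 0.986 and 1.06 in wild type. The exception was hda6 at 16 h. The comparisons are not independent, since cue1 and hda6 at 12 h share a wild type, as do cue1 and msh1 at 16 h. PSBQ2 over PSBQ1 was 1.4, 1.34 and 1.29 in cue1 at 12 h and 2.46, 2.46 and 2.17 in hda6, against 1.97, 2.08 and 1.8 in wild type, so the 2 mutants of that set lay on opposite sides of it. FD1 over FD2 was 0.144, 0.188 and 0.179 in cue1 at 12 h, against 0.1, 0.0871 and 0.129 in wild type. It was 0.212, 0.175 and 0.177 in hda6 at 16 h, against 0.138, 0.108 and 0.101 in its wild type, and 0.148, 0.114 and 0.119 in sal1, against 0.25, 0.201 and 0.194 in its wild type. The pair PSBO2 and PSBO1 overlapped between mutant and wild type in 5 of the 6 comparisons. PSAE2 over PSAE1 was 0.459, 0.462 and 0.438 in hda6 at 12 h, against 0.325, 0.347 and 0.312 in wild type. PSAH and PSAE ratios carry the strand uncertainty of those genes.

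**Figure D5:**
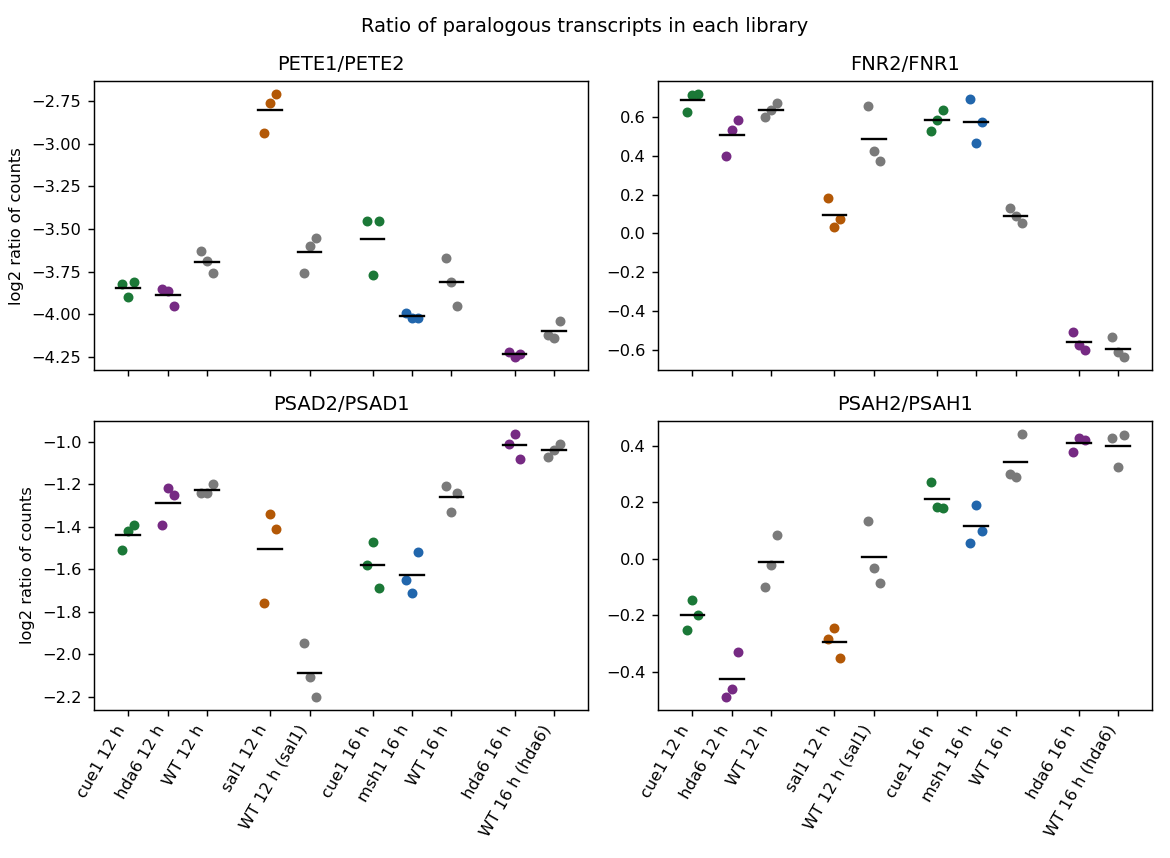
log2 ratio of counts of 4 paralog pairs (vertical axes, linear) in each library, by group, with mutants left of their wild type; points are libraries and bars are means of 3. PETE1/PETE2 stands apart in sal1, and FNR2/FNR1 in cue1 and msh1 at 16 h lies above wild type.

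The other genes of the light reactions were read from the same tests. Of 21 light-harvesting antenna genes, 9 were lower in hda6 at 12 h (42.9%, against 19.6% of all genes), 5 in sal1 (23.8%, against 21.3%), 7 in cue1 at 16 h (33.3%, against 3.42%) and 13 in msh1 (61.9%, against 16.0%), with 0 higher in these 4. The sal1 share is thus near that of all genes. With single libraries left out the counts were 7 to 13 in hda6 at 12 h, 3 to 8 in sal1, 4 to 18 in cue1 at 16 h and 10 to 13 in msh1. The count of 18 was without cue1 replicate 2 and that of 4 without wild-type replicate 2, and in sal1 3 came without sal1 replicate 2 or wild-type replicate 1 or 2, and 8 without wild-type replicate 3. In cue1 at 12 h 1 of 21 was lower and 2 were higher, where 0.542% of all genes were lower and 1.3% higher. In hda6 at 16 h 0 of 21 were lower and 1 was higher, where 3.52% of all genes were lower and 4.49% higher. The antenna counts in cue1 at 12 h and hda6 at 16 h were 0 without at least 1 of the libraries. LHCB2.2, a subunit of the main antenna of photosystem II, had log2 fold changes of -1.02 in cue1 at 16 h and -1.73 in msh1, LHCB1.1 -1.87 in hda6 at 12 h, and LHCB4.3, of a minor antenna, -1.67 in sal1. LHCB2.3 had -2.37 in hda6 at 12 h, -1.93 in cue1 at 16 h and -2.90 in msh1, but 40.6% of its exonic bases are overlapped by a gene on the other strand. Several LHCB1 and LHCB2 genes also share sequence with each other, so their single values are uncertain.

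Of 16 genes of cyclic electron flow and the NDH complex, 10 were lower in sal1 (62.5%, against 21.3% of all genes) and 2 higher (12.5%, against 25.0%), and the lower ones numbered 7 to 13 with single libraries left out. PNSB2 had -0.73 and PGR5, a factor of cyclic electron flow, -0.56 there. In hda6 at 12 h 4 were lower (25.0%, against 19.6%) and 3 higher (18.8%, against 22.4%), both near the shares of all genes; without single libraries they were 2 to 4 and 0 to 7, with 0 higher without wild-type replicate 3 and 7 without wild-type replicate 2. In msh1 5 were lower (31.2%, against 16.0%), in cue1 at 16 h 3 (18.8%, against 3.42%), and in cue1 at 12 h 3 were higher (18.8%, against 1.3%), which was 10 without wild-type replicate 2 and 1 without wild-type replicate 3 or any cue1 library. In hda6 at 16 h edgeR called 0, with 5 at an unadjusted p under 0.05, where 4609 of all 20495 genes passed. Without wild-type replicate 1, 3 were higher. In this list, exons on the other strand cover 100% of the exonic bases of NDHL, 56.5% of PNSB4 and 54.5% of NDHS. They also cover 25.6% of PNSL2, 25.4% of NDHN, 13.4% of PNSB1 and less of PNSL1 and PNSL3. Values of these genes are uncertain to that extent, while PNSB2 and PGR5 have no such overlap. Of 13 other nuclear subunits and carriers, 4 were lower in sal1 (30.8%, against 21.3%), and of 8 assembly factors 3 (37.5%). For these lists only the lower calls in sal1 are given, without other comparisons or runs that leave a library out. The shares rest on 4 and 3 genes. Exons on the other strand cover 100% of the exonic bases of FDC1 and ATPC2 in the first list and 39.8% of PAM68 in the second.

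Among 13 regulators, GLK2, GLK1 and SIG5 were followed by choice, and the others are not described. GLK2, a transcription factor that activates nuclear photosynthesis genes, was lower in hda6 at 12 h (-0.89), sal1 (-0.85), cue1 at 16 h (-0.91) and msh1 (-1.61). Its related factor GLK1 was lower in msh1 (-1.02) and in hda6 at 16 h (-0.60). SIG5, a plastid sigma factor that responds to light and stress, was higher in sal1 (1.11) and lower in the other 5 comparisons, with -3.39 in msh1. GLK1 and SIG5 were thus lower in hda6 at 16 h, where no member was called lower, and SIG5 was higher in sal1. Values of GLK2 and GLK1 in the remaining comparisons are not given. These genes were picked by choice, so they do not show how the 13 regulators changed as a list. Their part in the members' changes was not tested. Of 10 clock genes, CCA1, LHY and PRR9 were called lower in each comparison except sal1, where CCA1 was called higher. Their part was not tested either.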

How the data were processed

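RNA-seq of 30 leaf libraries was analysed from the counts per gene that the authors deposited. Per the submitters' processing notes, trimming used Trim Galore 0.6.6 with cutadapt 2.8, and STAR 2.7.10a aligned to TAIR10. The counting tool and strand setting are not stated in the sources used here. Entries assigned to no gene (2.58% to 49.6% per library) and the other totals were left out. Within each of the 4 sets, genes with enough counts (edgeR's filter at a minimum count of 10) were fitted with edgeR 4.0.16 in R 4.3.3 (TMM scaling, quasi-likelihood test, Benjamini-Hochberg adjustment over all genes of the fit, threshold 0.05). Comparisons across sets tested the difference of 2 effects, each against its own wild type. CPM were computed from the counts with the scaled library sizes. Library totals of 14417942 to 33747006 counts give each member at least 791 counts per library, so that counting error is small beside the spread between replicates, with a biological coefficient of variation of 0.0999 to 0.159 per set.

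The genes described in full are, per comparison, up to 5 called members with the smallest adjusted p, the member with the largest absolute log2 fold change and the paralogs of these; from the other lists, up to 2 called genes per list and comparison, with GLK1, GLK2, SIG5 and CCA1 followed across comparisons by choice. The members and lists were chosen with earlier results of these data known. In the sal1 set, all 3 pairs of libraries with the same replicate number deviated together (residual correlations 0.121 to 0.195), so the number was taken to pair them, and a fit with it as a block is given beside that count; no label gives the origin of the pairing. Alternatives were RLE and upper-quartile scaling, DESeq2 1.42.0, no filter, only the groups compared, all 30 libraries in one model, a replicate block and leaving out each library. The fits were tested on simulated data with known fold changes. The simulation drew each gene independently, so it held no shifts of many members in a single library and cannot speak to them.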

Additional observations from a re-analysis of the deposited data

Results flagged for a closer look

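For 7 members the hda6 effect at 16 h differed from that at 12 h by the test of the difference itself, and each difference was positive on the log2 scale. It was 1.08 for FD1, 0.91 for PSAH2, 0.792 for ATPD, 0.708 for PSAO, 0.679 for PSBX, 0.651 for PSAK and 0.645 for PSBQ1. The 2 day lengths belong to different sets, with 49.1% to 49.6% of entries assigned to no gene in the hda6 set at 16 h and 2.58% to 5.78% in the set at 12 h, so set and day length cannot be told apart.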

How the results depend on the processing

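No called member reversed the direction of its log2 fold change under any alternative run. Reversal was recorded for called members only, and not for counts, medians or ratios. The number of members called lower depended on the setting in several comparisons. In hda6 at 12 h it was 12, and 2 to 15 when each library was left out in turn, and 6 without the 2 libraries with the lowest shares of unassigned entries, an alternative chosen after seeing the data. In sal1 it was 12, 1 to 17 with a library left out, 19 with all 30 libraries in one model and 20 with the replicate block. In cue1 at 16 h it was 6, 0 to 26 with a library left out, 24 by DESeq2, 1 with only the groups compared and 1 with the replicate block. In msh1 it was 8, 1 to 7 with a library left out, 13 by DESeq2 and 5 with the block, and the number higher was 1, and 0 to 2 with a library left out.

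The number higher in cue1 at 12 h was 0, 3 by DESeq2 and 1 with the block. In hda6 at 16 h it was 1, 1 to 3 with a library left out, 2 with upper-quartile scaling, 3 by DESeq2, 2 without a filter, 0 with all 30 libraries and 3 with the block. For the hda6 effect at 16 h minus 12 h it was 7, 4 to 16 with a library left out, 13 with upper-quartile scaling and 15 by DESeq2. For the cue1 effect at 16 h minus 12 h the number lower was 0, 0 to 1 with a library left out, 6 by DESeq2 and 2 with all 30 libraries. For hda6 against cue1 it was 19, and 9 to 16 with a library left out. For msh1 against cue1 the number higher was 0, 0 to 10 with a library left out, 5 by DESeq2, and 1 without a filter or with only the groups compared. For the sal1 effect minus the hda6 effect the number higher was 0, 0 to 1 with a library left out and 1 with all 30 libraries, and the number lower was 0, 0 to 2 with a library left out and 2 by DESeq2, with all 30 libraries and with the block.

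Among all genes, cue1 at 12 h had 381 calls (269 higher and 112 lower), 32 to 303 with a library left out, 1184 by DESeq2 (692 higher and 492 lower), 166 with only the groups compared, 656 with all 30 libraries, 168 with the block and 50 without the 2 libraries. In cue1 at 16 h they numbered 1404, 563 to 1685 with a library left out and 921 with only the groups compared, and in hda6 at 16 h 1643, 930 to 2125 with a library left out and 2743 with the block. For the cue1 effect at 16 h minus 12 h they numbered 168, 47 to 369 with a library left out, 917 by DESeq2, 558 with all 30 libraries and 18 with the block. The cause of these shifts was not tested. In the sets other than that of sal1, the replicate number was not taken to pair libraries. Correlations of same-numbered libraries ran from -0.466 to 0.138 for cue1, hda6 and wild type at 12 h. For cue1, msh1 and wild type at 16 h they ran from -0.231 to 0.0849. The 16 h set of hda6 had 0.0399 to 0.192, with 2 of 3 over 0.1, and whether same numbers share an origin there was not tested. Precision was limited by 3 replicates per group and not by the depth of the members.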
